A study of Mus musculus with 22 samples.

Results

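The genes described here are the organic ion and drug transporters of 3 families: the SLC22 carriers (symbols beginning Slc22a), the organic anion transporting polypeptides (Slco) and the ATP-driven ABCC pumps and their relatives (Abcc). They were taken by symbol from the gene lists of 2 tables of normalised expression, and a gene had to be in both. This gave 51 genes, 26 Slc22a, 15 Slco and 10 Abcc, of 24063 genes in the first table and 24019 in the second. The symbol rule used no measured value, but the families were chosen with earlier results of these data known.

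Transcripts were sequenced from 22 liver tumours of C57BL/6 mice. The tumours were started by injecting plasmids into the tail vein in a large volume (hydrodynamic delivery), which brings them into hepatocytes. Every tumour, those of the comparison groups included, carried MYC. The second lesion was p53 (written sgp53, a guide RNA against it, in the sample names of the second set) or β-catenin (bcat, or CTNNB1 in the second set), and each construct mix also held luc, a luciferase, or lucOS, a luciferase that carries model T cell antigens. No tumour was treated. The first set (set 1) held 3 myc.lucOS.p53, 3 myc.luc.p53, 2 myc.lucOS.bcat and 4 myc.luc.bcat tumours. The second (set 2) held 4 myc.lucOS.p53, 3 MYC.luc.CTNNB1 and 3 MYC.lucOS.CTNNB1 tumours, and no luc p53 tumour. Tumours are named below by antigen and driver (luc p53, for example) and numbered within a group. Nothing in the labels gives an age or a sex, or states that no mouse gave more than 1 tumour, so p-values measure the spread between tumour samples. A tumour sample can also hold normal liver and other cells.

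The depth was 33.706 M to 54.873 M reads over genes per tumour in set 1 and 33.551 M to 50.116 M in set 2. Trp53, the targeted gene, was lower in the p53 tumours, with values from 1423 to 2280 against 3296 to 4994 in the β-catenin tumours of set 1 and from 1345 to 2223 against 2631 to 4405 in set 2. Luc p53 tumour 1 had 8.90% of its reads on ribosomal RNA (Rn45s). Within set 2, names of p53 tumours 1 to 3 begin with AL and those of p53 tumour 4 and all β-catenin tumours with JAX, so the name and the driver largely coincide. The 7 hepatocyte marker genes were present in every tumour, with sums of 351360.0 to 712611 in luc p53, 492199 to 742807 in lucOS p53, 894860.0 to 1108730.0 in luc β-catenin and 884297 to 942985 in lucOS β-catenin tumours of set 1, where the drivers did not overlap. In set 2 the sums were 254514 to 495870.0 in lucOS p53, 234085 to 912979 in luc β-catenin and 311163 to 1049630.0 in lucOS β-catenin tumours, with overlap. A list of 7 pericentral hepatocyte genes summed to between 6400.3 and 22039.9 in the p53 tumours and to between 41577 and 380924 in the β-catenin tumours of the 2 sets.

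Hepatocytes clear bile acids, bilirubin, steroid conjugates, drugs and cations from the blood. The uptake side is served by SLC22 and OATP carriers on the sinusoidal membrane, and the ABCC pumps then send conjugates into bile (MRP2) or back into blood (MRP3, MRP4). In normal liver several of these carriers are zoned along the lobule, where Wnt signalling to β-catenin marks the pericentral end, and others are typical of the kidney proximal tubule (OAT1, OAT3) or the testis.

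Both among luc tumours of set 1 and among lucOS tumours of set 2, the uptake carriers Slco1a1, Slco1a4, Slco1b2 and Slco2b1, the carrier Slc22a18 and the export pumps Abcc2 and Abcc3 were called higher with β-catenin than with p53. The kidney-type anion carrier Slc22a8 and the prostaglandin carrier Slco2a1 were called lower in both. Other hepatic carriers, such as Slc22a7 and Abcc6, were not called in any comparison. A gene was tested where its value reached 10 in at least 2 tumours of set 1 or 3 of set 2, which 34 of the 51 did in set 1 and 35 in set 2. It was called at an adjusted p under 0.05 in limma, fitted to log2(value + 1) over all genes of a set. Differences below are on that log2 scale, β-catenin minus p53 unless said, and they understate changes of genes near 0. Among luc tumours of set 1, 12 of the 34 were called higher and 2 lower, where 5.93% of all genes tested were called higher and 9.16% lower (15.1% in either direction). Among lucOS tumours, 3 were higher and 1 lower in set 1 (1.62% and 2.59% of all genes, 4.21% together), and 8 were higher and 3 lower of 35 in set 2 (6.08% and 10.9%, 17% together). The median difference of the members was 0.40, 0.17 and 0.56 in these comparisons, and that of all genes tested was -0.20, -0.15 and -0.16. With TMM scaling the median of all genes moved to -0.011, 0.00035 and -0.0044, and the genes called higher and lower changed from 956 and 1475 to 1221 and 680 for luc, from 261 and 417 to 317 and 197 for lucOS in set 1, and from 950 and 1706 to 1321 and 1023 in set 2.

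Values that did not overlap between drivers, with every β-catenin tumour above or below every p53 tumour, were found for 13 and 6 members among luc tumours (10.9% and 23.2% of all genes tested), for 11 and 4 among lucOS tumours of set 1 (13.5% and 24.3%) and for 8 and 4 in set 2 (10.3% and 22.5%).

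In all, 16 members were called in at least 1 of the 3 comparisons, and Slco1a4 and Slco2a1 in each of them. The luc comparison of set 1 and the lucOS comparison of set 2 share no tumour. Of 34 members tested in both, 29 (85.3%) had the same sign, against 74.9% of 15378 genes. The 9 called in both are those named above. They were 64.3% of the members called in set 1 and 81.8% of those called in set 2, where the shares for all genes were 44.3% and 40.1%.

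**Figure D1:**
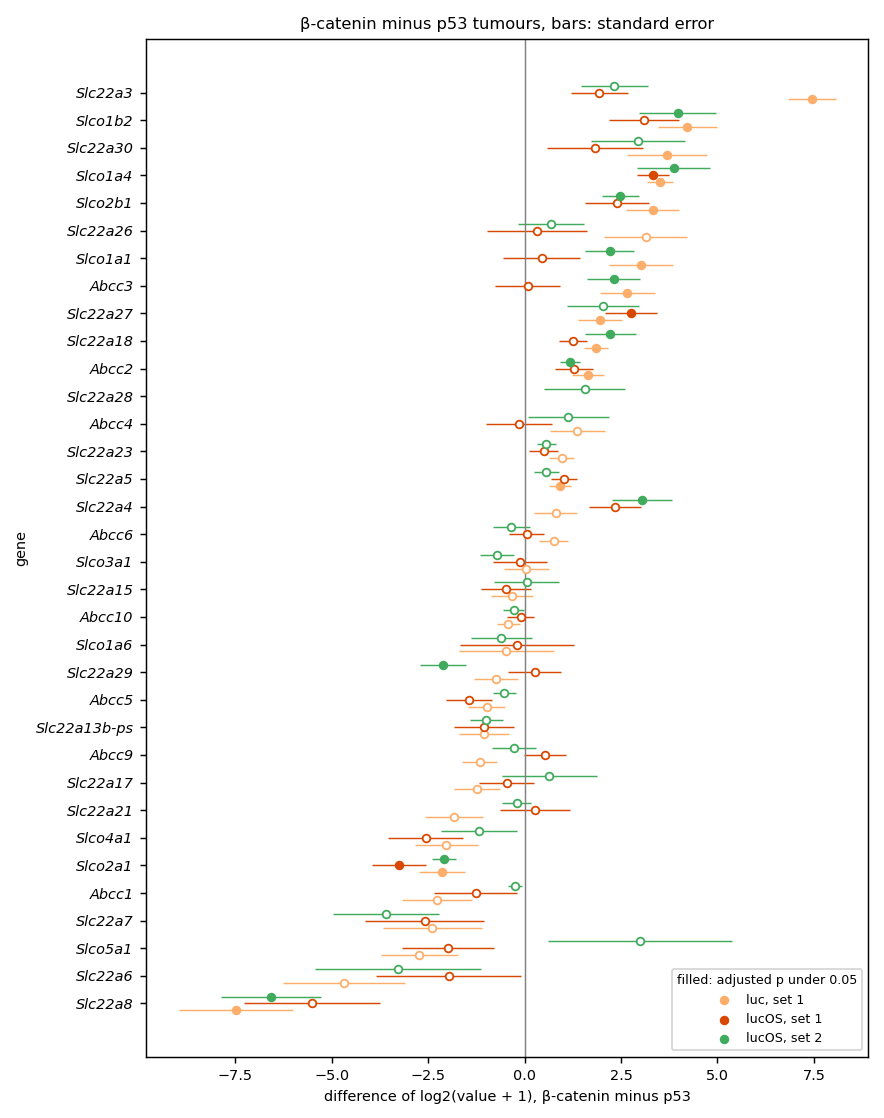
Difference of log2(value + 1) between β-catenin and p53 tumours (x axis) for tested members (y axis), with bars of 1 standard error. Light orange is luc in set 1, dark orange lucOS in set 1 and green lucOS in set 2. Filled points passed an adjusted p of 0.05. Genes tested in set 1 are ordered by the luc difference, with Slc22a3 at the top, followed by Slco1b2, Slc22a30 and Slco1a4. Slc22a8 has the lowest difference in all 3 comparisons.

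The organic cation transporters move small cations such as monoamines, thiamine and metformin. Slc22a3 (OCT3, chr17:12418960-12507704, minus strand, GRCm38), the extraneuronal monoamine carrier, gave the largest positive difference of any member among luc tumours. It was read 1.36, 0 and 3.84 in the luc p53 tumours, which is 6 reads in all, and 626, 287, 457 and 289 in the luc β-catenin tumours. Every β-catenin tumour was far above every p53 tumour, and the difference of 7.45 ± 0.61 (SE, adjusted p = 0.000124) held with each tumour left out in turn (adjusted p up to 0.000817). Its size depends on the constant added, and it was 5.38 with 8 in place of 1. In the lucOS tumours of set 1 the values were closer, 114 and 31.1 with β-catenin against 16.98, 13.9 and 13.8 with p53 (difference 1.94 ± 0.73 (SE, adjusted p = 0.14)). In set 2 the values were 9.46, 19.9 and 20.6 in lucOS β-catenin, 106, 26.2 and 5.11 in luc β-catenin and 0.913, 2.76, 1.99 and 4.75 in lucOS p53 tumours. Each β-catenin tumour was above each p53 tumour there too, but the lucOS difference of 2.33 ± 0.86 (SE, adjusted p = 0.0865) was not called, and in set 2 the p53 tumours gave only 1 to 4 reads each. DESeq2 on the recovered reads called it in all 3 comparisons (adjusted p = 2.14e-20, 0.0048 and 0.0316) and edgeR only that among luc tumours. Slc22a2 (OCT2) stayed under the filter in both sets, with a highest value of 45.8 in set 2 lucOS p53 tumour 3.

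The upstream sequence of Slc22a3 is shown because this gene had the largest positive difference among luc tumours. The 250 bases before its RefSeq start (chr17:12507705-12507954, minus strand, GRCm38.p6) hold no match on either strand to CTTTG followed by AA, AT, TA or TT, letters that spell common sites of the TCF/LEF factors that partner β-catenin, and so no base is in capitals. No match says only that these letters are not in this window.
Slc22a3: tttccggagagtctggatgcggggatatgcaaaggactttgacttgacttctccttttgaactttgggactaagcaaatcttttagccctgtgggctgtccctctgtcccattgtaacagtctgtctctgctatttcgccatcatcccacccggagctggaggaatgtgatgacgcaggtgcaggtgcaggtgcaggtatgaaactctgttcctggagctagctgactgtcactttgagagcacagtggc

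**Figure D2:**
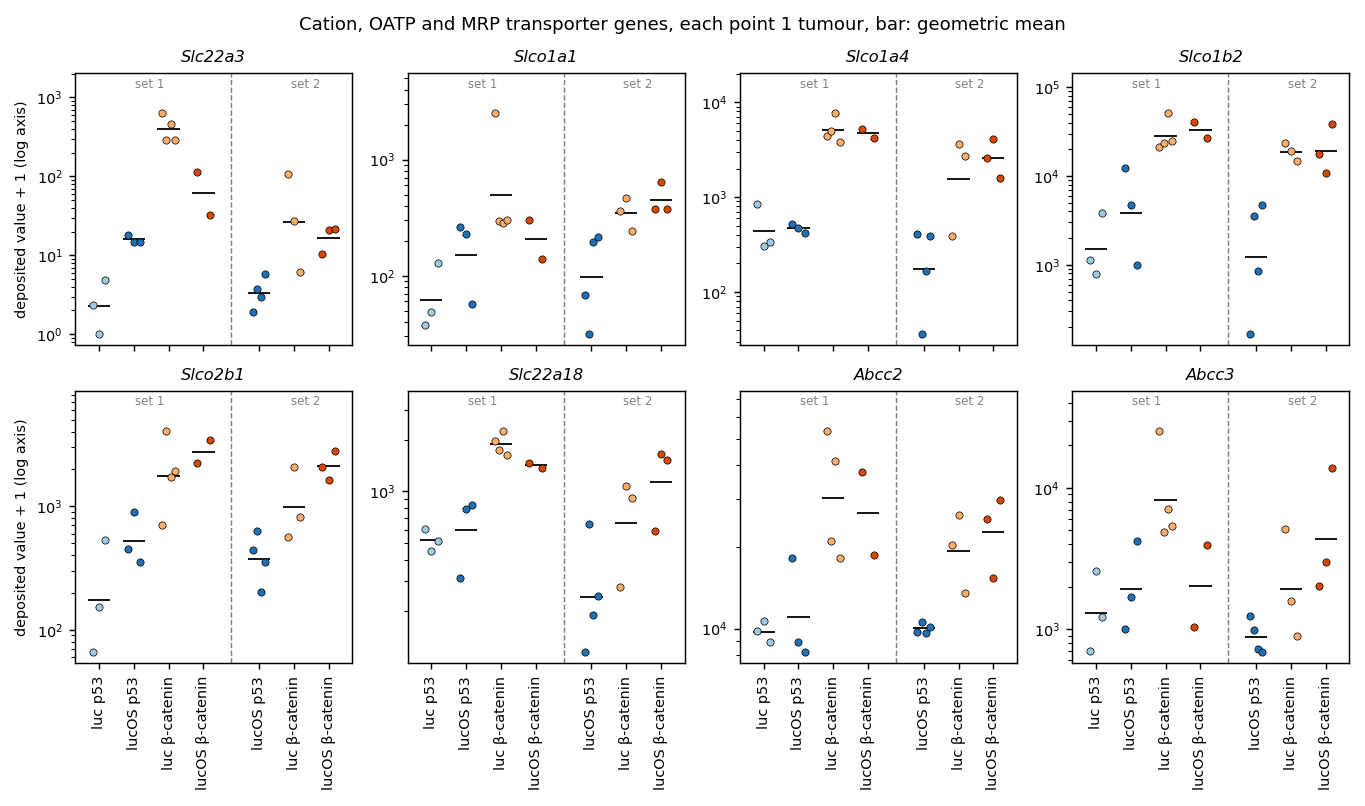
Deposited value plus 1 on a log axis for 8 transporter genes in each of the 22 tumours. Points are tumours, black bars are geometric means, and the dashed line parts set 1 from set 2. In set 1 the luc β-catenin tumours lie above the luc p53 tumours in all 8 panels, and the Slc22a3 panel has the widest gap.

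Of the carnitine and zwitterion carriers, Slc22a5 was called among luc tumours and Slc22a4 in set 2. Slc22a5 (OCTN2), which brings carnitine into cells for fatty acid oxidation, had values of 1210.2, 1110.3, 1926 and 1233 in luc β-catenin and 845, 617 and 669 in luc p53 tumours of set 1. The groups did not overlap, but the difference was only 0.92 ± 0.28 (SE, adjusted p = 0.0482), and its call was lost whichever tumour was left out (adjusted p up to 0.139). It was not called among lucOS tumours, with 1.03 in set 1 (adjusted p = 0.0973) and 0.57 in set 2 (adjusted p = 0.239). Slc22a4 (OCTN1), the ergothioneine carrier, was called in set 2, where the lucOS β-catenin tumours had 159, 63.02 and 318 and the p53 tumours 17.3, 25.8, 15.9 and 11.9. That difference was 3.03 ± 0.78 (SE, adjusted p = 0.0283) with no overlap, and the call was lost when any 1 of lucOS β-catenin tumours 1 and 3 and lucOS p53 tumours 1, 3 and 4 was left out (adjusted p up to 0.0969). In set 1 the differences of Slc22a4 were 2.34 among lucOS tumours (adjusted p = 0.0688) and 0.81 among luc tumours (adjusted p = 0.339). Slc22a5 and its neighbour Slc22a21 (OCTN3) share sequence: 26.2% and 22.0% of the 50-base words of their transcripts also occur in another of Slc22a4, Slc22a5 and Slc22a21, so their separate values are uncertain. Slc22a21 and Slc22a15 were tested and not called in any comparison, and Slc22a16, a testis carrier, was under the filter.

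Among the organic anion transporters, the kidney-type genes Slc22a8 and Slc22a6 reached their highest values in p53 tumours. Slc22a8 (OAT3, chr19:8591254-8611835, plus strand) stood at 604, 342 and 461 in luc p53 tumours and 21.5, 0, 0 and 0.924 in luc β-catenin tumours of set 1. Only β-catenin tumour 1 was clearly above 0, and the groups were far apart. The difference of -7.48 ± 1.48 (SE, adjusted p = 0.00995) held with each tumour left out in turn (adjusted p up to 0.0437). In set 2 the lucOS p53 tumours had 298, 584, 449.7 and 379 and the lucOS β-catenin tumours 30.6, 0 and 1.65, a difference of -6.57 ± 1.30 (SE, adjusted p = 0.0124) that held with each tumour left out in turn (adjusted p up to 0.0438). The luc β-catenin tumours of set 2 were as low, with 34.6, 5.82 and 0. With lucOS in set 1 the p53 values spread from 2.99 to 423, and against 1.02 and 0 with β-catenin the difference of -5.51 ± 1.77 (SE, adjusted p = 0.0935) was not called. Without lucOS p53 tumour 2, the low tumour of that group, it was -7.53, adjusted p = 0.0159. All these β-catenin values rest on few reads, and edgeR on the recovered reads missed the set 2 call (adjusted p = 0.0522).

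Slc22a6 (OAT1, chr19:8618039-8628299, plus strand), the proximal tubule carrier of urate and drugs that lies beside Slc22a8, varied more. It had 593, 153 and 888 in luc p53 and 276, 12.8, 3.58 and 3.70 in luc β-catenin tumours of set 1. The groups overlapped through β-catenin tumour 1, and the difference of -4.68 ± 1.58 (SE, adjusted p = 0.066) was not called. Without that tumour it was -6.02, adjusted p = 0.0185. The p53 tumours of set 2 had 549, 114, 1028 and 1194, the lucOS β-catenin tumours 1022, 0.8292 and 83.9 and the luc β-catenin tumours 1091, 35.9 and 5.97. Tumour 1 of each β-catenin group was as high as the highest p53 tumours, while the others were low (lucOS difference -3.29 ± 2.14 (SE, adjusted p = 0.305)). For lucOS in set 1 the values were 769, 10.95 and 37.7 with p53 and 12.3 and 23.7 with β-catenin (-1.97 ± 1.88 (SE, adjusted p = 0.568)). Slc22a12, the urate carrier of the kidney, was under the filter and had its highest values in β-catenin tumours, with 0.853 to 23.8 and 4.09 to 7.47 in luc and lucOS β-catenin tumours of set 1 against at most 1.54 with p53, and up to 91.3 in set 2 lucOS β-catenin tumour 3 against at most 0.913 with p53.

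Slc22a7 (OAT2), a hepatic carrier of nucleobases and cyclic nucleotides, had lower means with β-catenin in all 3 comparisons but was called in none. Its values were 1052, 81.7 and 1296 in luc p53 and 126, 102, 13.4 and 382 in luc β-catenin tumours, with overlap. The differences were -2.39 (adjusted p = 0.224), -2.59 (adjusted p = 0.338) and -3.60 (adjusted p = 0.0948) for luc, lucOS in set 1 and lucOS in set 2. LucOS p53 tumours of set 2 had 371, 201, 498 and 543 and the lucOS β-catenin tumours 26.2, 217 and 4.11, of which tumour 2 reached the p53 range.

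Genes that mark kidney tubule cells stood beside these values. Their summed level in the luc tumours of set 1 was 11298, 8810.1 and 3838 with p53 and 756, 679, 586 and 611 with β-catenin. Among lucOS tumours it was 9018, 707 and 6829.5 with p53 and 498 and 594 with β-catenin in set 1. The set 2 sums were 5819 to 13602 with lucOS p53, 1840.4 to 3738 with lucOS β-catenin and 772 to 896 with luc β-catenin. Of the 12 genes, 7 were tested in set 1 and 6 in set 2. Called lower with β-catenin were 4 in the luc comparison (Cdh16, Pax8, Lrp2 and Cubn) and 2 in the set 1 lucOS comparison (Cdh16 and Cubn). In the set 2 lucOS comparison they were 3 (Cdh16, Pax8 and Lrp2). The shares of all genes called lower were 9.16%, 2.59% and 10.9%. Slc5a2, a tubular glucose carrier, was not called in any driver comparison, with 544 to 712 in luc β-catenin and 507 to 645 in luc p53 tumours, and made up most of the sum in the former. Kap, a proximal tubule gene, was at 0 in every tumour, and Umod and Aqp2 were at 0 in every β-catenin tumour of set 1 and every luc β-catenin tumour of set 2. LucOS p53 tumour 2 of set 1 was low both in this sum and in Slc22a8 and Slc22a6. Slc22a6 did not follow the sum in every tumour. LucOS p53 tumour 3 of set 1 had a sum of 6829.5 with Slc22a6 at 37.7. Luc β-catenin tumour 1 of set 2 had a sum of 893 with Slc22a6 at 1091, and lucOS β-catenin tumour 1 a sum of 1840.4 with Slc22a6 at 1022. The part of these markers in the Slc22a8 and Slc22a6 values was not tested. In bulk tumour RNA, fewer cells of a type and less RNA per cell cannot be told apart.

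**Figure D3:**
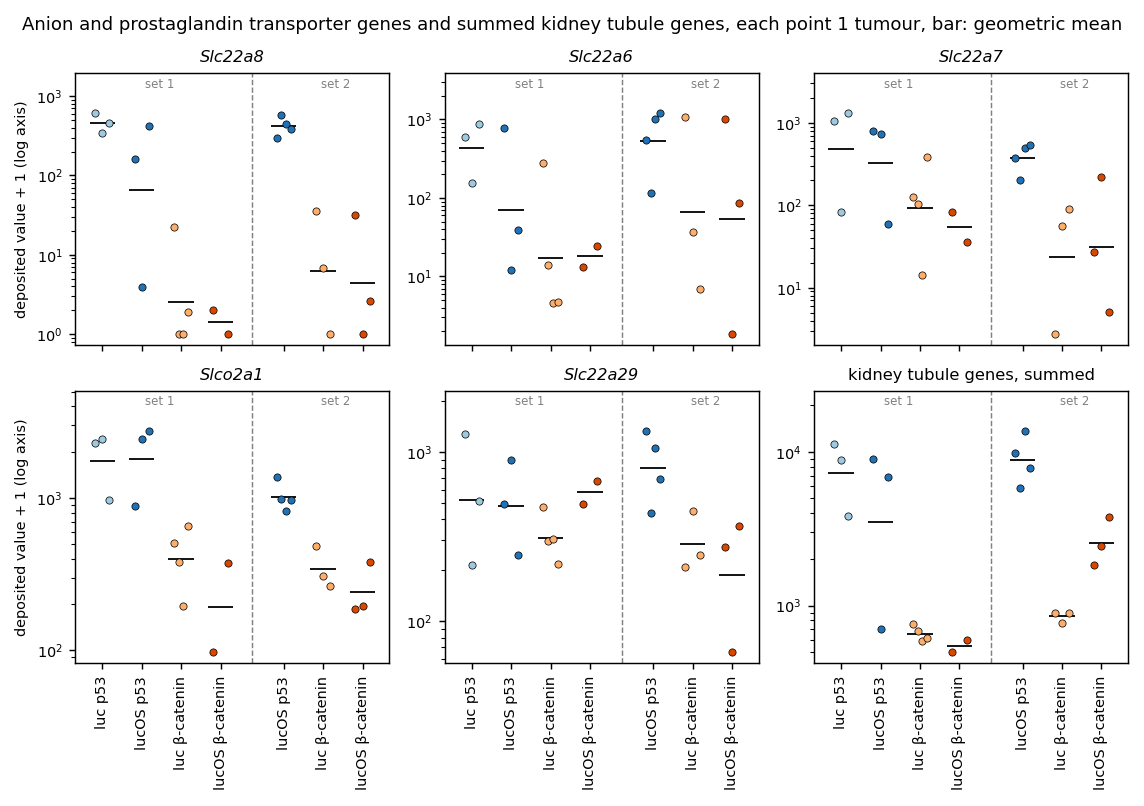
Deposited value plus 1 on a log axis for 5 transporter genes and the sum of 12 kidney tubule marker genes in each of the 22 tumours. Points are tumours, bars are geometric means and the dashed line parts the sets. Slc22a8 is near 0 in most β-catenin tumours, Slc22a6 is split within the set 2 β-catenin groups, and the kidney tubule sum lies between 498 and 756 in the set 1 β-catenin tumours.

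The mouse cluster of anion carriers on chromosome 19 went both ways. Slc22a27 was called higher with β-catenin in set 1, with 158, 717, 456 and 456 against 202, 74.9 and 66.1 among luc tumours (difference 1.96 ± 0.57 (SE, adjusted p = 0.0415)) and 538 and 1208 against 88.5, 103 and 183 among lucOS tumours (2.76 ± 0.68 (SE, adjusted p = 0.048)). The first call was lost when any 1 of luc β-catenin tumours 2, 3 and 4 and luc p53 tumours 2 and 3 was left out (adjusted p up to 0.125). The second was lost whichever tumour was left out (adjusted p up to 0.246). Set 2 lucOS β-catenin values were 1553, 75.5 and 845 against 114, 131, 98.5 and 109 with p53. They overlapped through β-catenin tumour 2, and the difference of 2.03 ± 0.94 (SE, adjusted p = 0.154) was not called by limma. Slc22a30 was called among luc tumours, where 485, 237, 486 and 417 with β-catenin stood against 228, 3.40 and 26.9 with p53 (difference 3.69 ± 1.04 (SE, adjusted p = 0.0379)). This call was lost when any 1 of luc β-catenin tumours 1, 2, 3 and 4 and luc p53 tumours 2 and 3 was left out (adjusted p up to 0.111), and edgeR on the recovered reads did not make it (adjusted p = 0.148). It was not called among lucOS tumours. In set 1 these had 543 and 131 with β-catenin and 50.1, 121 and 67.2 with p53, without overlap (1.83 ± 1.25 (SE, adjusted p = 0.406)). In set 2 they had 431, 46.4 and 954 with β-catenin and 110.4, 11.96, 68.6 and 14.3 with p53, with overlap (2.94 ± 1.21 (SE, adjusted p = 0.118)).

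Slc22a29 was called in set 2 alone and in the other direction, with 272, 64.7 and 365 in lucOS β-catenin and 1326, 433, 1058 and 692 in lucOS p53 tumours, and no overlap. The difference of -2.11 ± 0.60 (SE, adjusted p = 0.0397) was lost when any 1 of lucOS β-catenin tumours 1 and 2 and lucOS p53 tumours 1, 3 and 4 was left out (adjusted p up to 0.0993), and with TMM scaling it missed the threshold (adjusted p = 0.0549). In set 1 it was -0.74 among luc (adjusted p = 0.393) and 0.27 among lucOS tumours (adjusted p = 0.852). The luc β-catenin tumours of set 2 had 208, 444 and 245, of which tumour 2 lay in the p53 range. These genes are near copies: 29.9% of the 50-base words of Slc22a27, 53.9% of Slc22a28, 28.7% of Slc22a29 and 34.0% of Slc22a30 occur in another gene of the cluster. Reads could be split between them, and their separate values are uncertain. Slc22a26, which shares 0.0% of its words with the cluster, was tested and not called. Among luc tumours it had 39.7, 146, 26.9 and 313 with β-catenin and 24.4, 4.54 and 5.38 with p53, without overlap. Both lucOS comparisons overlapped.

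Slc22a29 and Slc22a30 are shown side by side because they lie next to each other, look alike upstream and had differences of opposite sign among luc tumours of set 1 and in set 2. Among lucOS tumours of set 1 both were above 0, and no comparison called both. The bases before their RefSeq starts are at chr19:8218901-8219150 (250 bases) and chr19:8405112-8405355 (244 bases, since 6 lie in an annotated exon), both on the minus strand of GRCm38.p6. Capitals mark the longest run of bases that both windows share, 31 bases, which begins 74 bases before the start of Slc22a29 and 98 before that of Slc22a30. The run is a description of likeness, and nothing in these data tests what it does. The likeness is not particular to this pair. The window of Slc22a28, of the same cluster, shares a longer run with that of Slc22a30. Slc22a28 was under the filter in set 1 and not called in set 2.
Slc22a29: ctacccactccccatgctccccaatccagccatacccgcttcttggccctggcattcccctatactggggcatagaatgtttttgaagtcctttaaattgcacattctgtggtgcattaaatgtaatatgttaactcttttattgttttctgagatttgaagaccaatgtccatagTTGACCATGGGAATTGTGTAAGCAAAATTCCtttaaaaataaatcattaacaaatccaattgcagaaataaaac
Slc22a30: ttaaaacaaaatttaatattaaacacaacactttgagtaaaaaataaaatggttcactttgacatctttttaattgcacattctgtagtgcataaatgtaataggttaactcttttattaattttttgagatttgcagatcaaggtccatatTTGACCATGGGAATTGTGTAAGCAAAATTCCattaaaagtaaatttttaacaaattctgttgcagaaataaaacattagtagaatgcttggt

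Upstream windows of 250 bases were matched for 41 of the 51 members, 48 windows in all. A TCF/LEF match was in 12 of 48 (25%), at 10 members, against 14.8% of 32851 windows of all genes. Of the 10, Slco1b2 was called, Abcc4, Abcc5 and Slco1a6 were tested and not called, and Slc22a12, Slc22a22, Slco1a5, Slco1c1, Slco6c1 and Slco6d1 were under the filter or at 0. These shares are descriptions of letters and not of binding.

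Of the remaining SLC22 genes, Slc22a18, an imprinted carrier of unclear substrate, was higher with β-catenin. Its values were 1960.4, 1744, 2244 and 1626 in luc β-catenin and 600.2, 452 and 517 in luc p53 tumours, without overlap and with little spread. The difference of 1.85 ± 0.31 (SE, adjusted p = 0.00486) held with each tumour left out in turn (adjusted p up to 0.0235). In set 2 the lucOS β-catenin tumours had 587, 1661 and 1524 and the p53 tumours 115, 647, 190.0 and 246. They overlapped through β-catenin tumour 1 and p53 tumour 2, and the difference of 2.23 ± 0.66 (SE, adjusted p = 0.0443) was lost when any 1 of lucOS β-catenin tumours 2 and 3 and lucOS p53 tumours 1, 3 and 4 was left out (adjusted p up to 0.128). Among lucOS tumours of set 1 it was 1.26 (adjusted p = 0.0748), with all β-catenin tumours above all p53 tumours. Slc22a17, Slc22a23 and the pseudogene Slc22a13b-ps were tested and not called.

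The Slco1 carriers take bile acids, bilirubin and hormone conjugates from the blood into hepatocytes and lie in a cluster on chromosome 6. Of 6 members, 4 were tested, and Slco1a1, Slco1a4 and Slco1b2 were called higher both among luc tumours of set 1 and among lucOS tumours of set 2. Slco1a4 (chr6:141805440-141856199, minus strand) was called in all 3 comparisons. It had 4457, 5035, 7620.2 and 3829 in luc β-catenin, 853, 305 and 334 in luc p53, 5264 and 4242 in lucOS β-catenin and 523, 468 and 422 in lucOS p53 tumours of set 1. No β-catenin tumour came near a p53 tumour. The differences of 3.51 ± 0.34 (SE, adjusted p = 0.000287) among luc and 3.33 ± 0.41 (SE, adjusted p = 0.00481) among lucOS tumours both held with each tumour left out in turn (adjusted p up to 0.00174 and 0.0403). LucOS β-catenin tumours of set 2 had 2561, 4114 and 1586 against 406, 34.96, 166 and 391 with p53. The difference there was 3.86 ± 0.95 (SE, adjusted p = 0.0253), and the call was lost when any 1 of lucOS β-catenin tumours 1, 2 and 3 and lucOS p53 tumour 3 was left out (adjusted p up to 0.0658). The luc β-catenin tumours of set 2 had 388, 3634 and 2695, of which tumour 1 lay in the p53 range.

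Slco1b2 (chr6:141629518-141686646, plus strand), the mouse counterpart of the human hepatic OATP1B carriers, was among the most abundant members. Values were 21097, 23602, 50721 and 25053 in luc β-catenin and 1132, 793 and 3839.9 in luc p53 tumours of set 1. The groups were 30118 ± 13832 (SD, n = 4) and 1922 ± 1669.8 (SD, n = 3), far from overlap. The difference of 4.22 ± 0.75 (SE, adjusted p = 0.00648) held with each tumour left out in turn (adjusted p up to 0.0337). For set 2 the lucOS β-catenin values were 17566, 10717 and 38407 and those of the p53 tumours 164, 3509, 857 and 4691, again without overlap though the p53 tumours spread widely. That difference was 3.97 ± 0.997 (SE, adjusted p = 0.0268), and the call was lost when any 1 of lucOS β-catenin tumours 1 and 3 and lucOS p53 tumour 3 was left out (adjusted p up to 0.0904). Among lucOS tumours of set 1 the values were 40578 and 26662 against 12369, 4682 and 988, and the difference of 3.09 ± 0.90 (SE, adjusted p = 0.0732) was not called. Its upstream sequence (chr6:141629268-141629517, plus strand, GRCm38.p6) is shown because it holds a TCF/LEF match, CTTTGTT in capitals, 140 bases before the start.
Slco1b2: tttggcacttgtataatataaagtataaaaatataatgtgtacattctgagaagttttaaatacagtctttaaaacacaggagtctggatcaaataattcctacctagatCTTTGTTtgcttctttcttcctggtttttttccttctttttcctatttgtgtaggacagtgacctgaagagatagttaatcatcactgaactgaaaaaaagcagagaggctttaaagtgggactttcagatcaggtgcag

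Slco1a1 had 2495, 293, 282 and 299 in luc β-catenin and 36.7, 47.7 and 128 in luc p53 tumours of set 1, where β-catenin tumour 1 was far above the others. The difference of 3.01 ± 0.84 (SE, adjusted p = 0.0351) was lost when any 1 of luc β-catenin tumour 3 and luc p53 tumours 1 and 2 was left out (adjusted p up to 0.122). In set 2 it had 371, 640.2 and 376 in lucOS β-catenin and 67.5, 30.4, 193 and 215 in lucOS p53 tumours, a difference of 2.20 ± 0.63 (SE, adjusted p = 0.0398). That call was lost when any 1 of lucOS β-catenin tumours 1, 2 and 3 and lucOS p53 tumours 1 and 2 was left out (adjusted p up to 0.1). With lucOS in set 1 the groups overlapped, and the difference was 0.45 ± 0.999 (SE, adjusted p = 0.826). Slco1a6 was tested and not called, and Slco1a5 and the brain thyroxine carrier Slco1c1 were under the filter.

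Slco2b1, a broad carrier of steroid sulphates, was higher and Slco2a1, which takes prostaglandins out of the tissue, was lower with β-catenin. Slco2b1 had 698, 4041, 1733 and 1912 in luc β-catenin and 65.2, 152 and 529 in luc p53 tumours, with the lowest β-catenin tumour just above the highest p53 tumour. The difference was 3.32 ± 0.69 (SE, adjusted p = 0.0125), and the call was lost without luc p53 tumour 1 (adjusted p = 0.0557). The set 2 values were 2083, 1614 and 2777 with lucOS β-catenin and 441, 631, 203 and 355 with lucOS p53, without overlap. This difference of 2.48 ± 0.48 (SE, adjusted p = 0.0111) held with each tumour left out in turn (adjusted p up to 0.0422). The luc β-catenin tumours of set 2 had 559, 2056 and 823, of which tumour 1 lay in the p53 range. The set 1 lucOS difference was 2.40 (adjusted p = 0.113).

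Slco2a1 (chr9:102988712-103096002, plus strand) had 2288, 2439.7 and 970.0 in luc p53, 503, 381, 195 and 656 in luc β-catenin, 889, 2440.5 and 2749.8 in lucOS p53 and 96.2 and 374 in lucOS β-catenin tumours of set 1. The luc difference was -2.15 ± 0.59 (SE, adjusted p = 0.0339), and the call was lost when any 1 of luc β-catenin tumours 2 and 3 and luc p53 tumours 1 and 2 was left out (adjusted p up to 0.117), and also with TMM scaling (adjusted p = 0.0529). The lucOS difference was -3.25 ± 0.70 (SE, adjusted p = 0.0341), and its call was lost when any 1 of lucOS β-catenin tumours 1 and 2 and lucOS p53 tumours 2 and 3 was left out (adjusted p up to 0.158). In set 2 the lucOS p53 tumours had 1379, 977, 821 and 966 and the lucOS β-catenin tumours 186, 193 and 376. The groups were well apart, and the difference of -2.09 ± 0.32 (SE, adjusted p = 0.00518) held with each tumour left out in turn (adjusted p up to 0.0165). The luc β-catenin tumours of set 2, with 482, 308 and 263, lay in the same low range. Slco3a1, Slco4a1 and Slco5a1 were tested and not called, and Slco4c1 of the kidney and the testis genes Slco6b1, Slco6c1 and Slco6d1 were under the filter or at 0.

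Of the multidrug resistance proteins, 7 of 8 were tested, and Abcc2 and Abcc3 were called. Abcc2 (MRP2), which pumps bilirubin conjugates into bile, had 53278, 20951, 41297 and 18165 in luc β-catenin and 9789, 10628 and 8921 in luc p53 tumours of set 1. The difference was 1.63 ± 0.41 (SE, adjusted p = 0.0259) with no overlap, and the call was lost when any 1 of luc β-catenin tumour 3 and luc p53 tumours 1, 2 and 3 was left out (adjusted p up to 0.0791). The p53 tumours of set 2 were close together at 9730.5, 10607, 9679 and 10108, and the lucOS β-catenin tumours had 25366, 15409 and 29870.0. The difference was 1.18 ± 0.26 (SE, adjusted p = 0.0174), and the call was lost without lucOS β-catenin tumour 3 (adjusted p = 0.0591). Abcc2 was not called among lucOS tumours of set 1. These had 37613 and 18727 with β-catenin and 18221.5, 8918 and 8206 with p53, so β-catenin tumour 2 was just above p53 tumour 1.

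Abcc3 (MRP3), the sinusoidal exporter of glucuronides, had 25239, 4867, 7051 and 5382 in luc β-catenin and 702, 2561 and 1223 in luc p53 tumours. β-catenin tumour 1 was several times the others. The difference was 2.67 ± 0.71 (SE, adjusted p = 0.03), and the call was lost when any 1 of luc β-catenin tumours 1 and 3 and luc p53 tumours 1 and 3 was left out (adjusted p up to 0.118). In set 2 the values were 2036, 2984 and 13761 with lucOS β-catenin and 1247, 986, 722 and 688 with lucOS p53, a difference of 2.30 ± 0.70 (SE, adjusted p = 0.0488) that was lost when any 1 of lucOS β-catenin tumours 2 and 3 and lucOS p53 tumours 1, 2, 3 and 4 was left out (adjusted p up to 0.142). The luc β-catenin tumours of set 2 had 5112, 1580 and 889, of which tumour 3 lay in the p53 range. For lucOS in set 1 the groups overlapped and the difference was 0.08 ± 0.84 (SE, adjusted p = 0.967).

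Abcc6, an abundant liver pump linked to the calcification disorder pseudoxanthoma elasticum, was not called, with 8919 ± 3283 (SD, n = 4) in luc β-catenin and 5438 ± 2315 (SD, n = 3) in luc p53 tumours (difference 0.76 ± 0.38 (SE, adjusted p = 0.192)). Its other differences were 0.06 ± 0.45 (SE, adjusted p = 0.955) and -0.34 ± 0.47 (SE, adjusted p = 0.643) among lucOS tumours of sets 1 and 2. Abcc1, Abcc4, Abcc5 and Abcc10 were not called either, nor was Abcc9, the sulphonylurea receptor subunit of potassium channels. Abcc12 and the other channel subunit, Abcc8, were under the filter. Per kilobase of transcript, mean values in the luc β-catenin tumours of 4 abundant members ran from Slco1b2 (9107) through Abcc2 (4164) and Abcc3 (2127) down to Abcc6 (1793). In the luc p53 tumours 3 of them stood in the order Abcc2 (1218), Abcc6 (1093) and Slco1b2 (581). With 3 and 4 tumours and the spreads given above, neighbours in these orders were not tested against each other.

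The p53 and β-catenin tumours of set 2 differ in the start of their names as well. Within the tumours named JAX, 3 lucOS β-catenin and 1 lucOS p53, none of the 11 members called there passed the test, and all 11 had the same sign. The difference was 2.71 for Slco1a4, 2.04 for Slco1b2, 1.05 for Slco1a1, 2.56 for Slco2b1 and 2.21 for Slc22a18. It was 3.52 for Slc22a4, 1.17 for Abcc2, 2.67 for Abcc3, -6.44 for Slc22a8, -2.01 for Slco2a1 and -1.89 for Slc22a29. The adjusted p-values ran from 0.353 to 0.614, and 23 of all genes were called. These values rest on p53 tumour 4 alone, which is assumed to vary like the other groups and was the highest of the 4 p53 tumours in Slco1b2 and Slco1a1.

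Of the 17 members not tested in set 1, 4 (Slc22a19, Slco6b1, Slco6c1 and Slco6d1) were at 0 in every tumour and 13 were low, with a highest value of 24.0 for Abcc12. In set 2 there were 16, of which Slc22a16 was also at 0 throughout and 11 were low, up to 91.3 for Slc22a12. A count of 0 allows up to 3 reads per tumour, counting error only, or values of 2.18 to 4.07. Slc22a13 and Slc22a13b-ps lie within the span of Slc22a14 on the same strand in GENCODE, while the RefSeq start of Slc22a14 lies outside both. Which of these gene models was counted is not given in the sources used here.

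The antigen comparison asked whether lucOS tumours differ from luc tumours with the same driver. None of the members was called by limma, and 0% of all genes were, in p53 tumours of set 1 or in β-catenin tumours of either set. At an unadjusted p under 0.05 in limma there were 2 of 34 members in p53 tumours (Slc22a3 and Slc22a4), 2 of 34 in β-catenin tumours of set 1 (Abcc3 and Slc22a3) and 1 of 35 in those of set 2 (Abcc1). Of all genes tested, 722 of 16108, 222 of 16108 and 288 of 15625 reached it. EdgeR on the recovered reads called no member, and DESeq2 called 1, Slc22a3 in the β-catenin tumours of set 1. Of all genes, DESeq2 called 9 of 16108 in p53 tumours, and 18 of 16108 and 10 of 15625 in β-catenin tumours of sets 1 and 2. EdgeR called 0 in each. The members' median difference, lucOS minus luc, was 0.13, -0.14 and 0.07, beside -0.0012, 8.2e-05 and -0.012 for all genes. In p53 tumours the groups did not overlap for 1 member above and 1 below (4.63% and 5.07% of all genes). The counts were 1 above and 3 below in β-catenin tumours of set 1 (3.4% and 2.95%) and 1 and 1 in set 2 (2.18% and 2.36%).

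Slc22a3 is the member that DESeq2 called. In set 1 it was 16.98, 13.9 and 13.8 in lucOS p53 against 1.36, 0 and 3.84 in luc p53 tumours, and 114 and 31.1 in lucOS β-catenin against 626, 287, 457 and 289 in luc β-catenin tumours. The lucOS tumours were thus above the luc tumours with p53 and below them with β-catenin. The antigen differences were 2.81 ± 0.66 (SE, adjusted p = 0.952) and -2.70 ± 0.69 (SE, adjusted p = 1), and the driver difference with lucOS minus that with luc was -5.51 ± 0.95 (SE, adjusted p = 0.973). None passed limma's adjustment. DESeq2 gave the last an adjusted p of 0.00109 and edgeR 0.988. In that test DESeq2 called 17 of 16108 genes and edgeR 0. The set 2 lucOS minus luc difference among β-catenin tumours was -0.64 ± 0.92 (SE, adjusted p = 1), with overlapping groups. For this test of whether the driver difference depends on the antigen, limma called 0 members, 3 of 34 had an unadjusted p under 0.05 (Abcc3, Abcc9 and Slc22a3), and 0% of all genes were called. Of all genes tested, 436 of 16108 had an unadjusted p under 0.05.

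**Figure D4:**
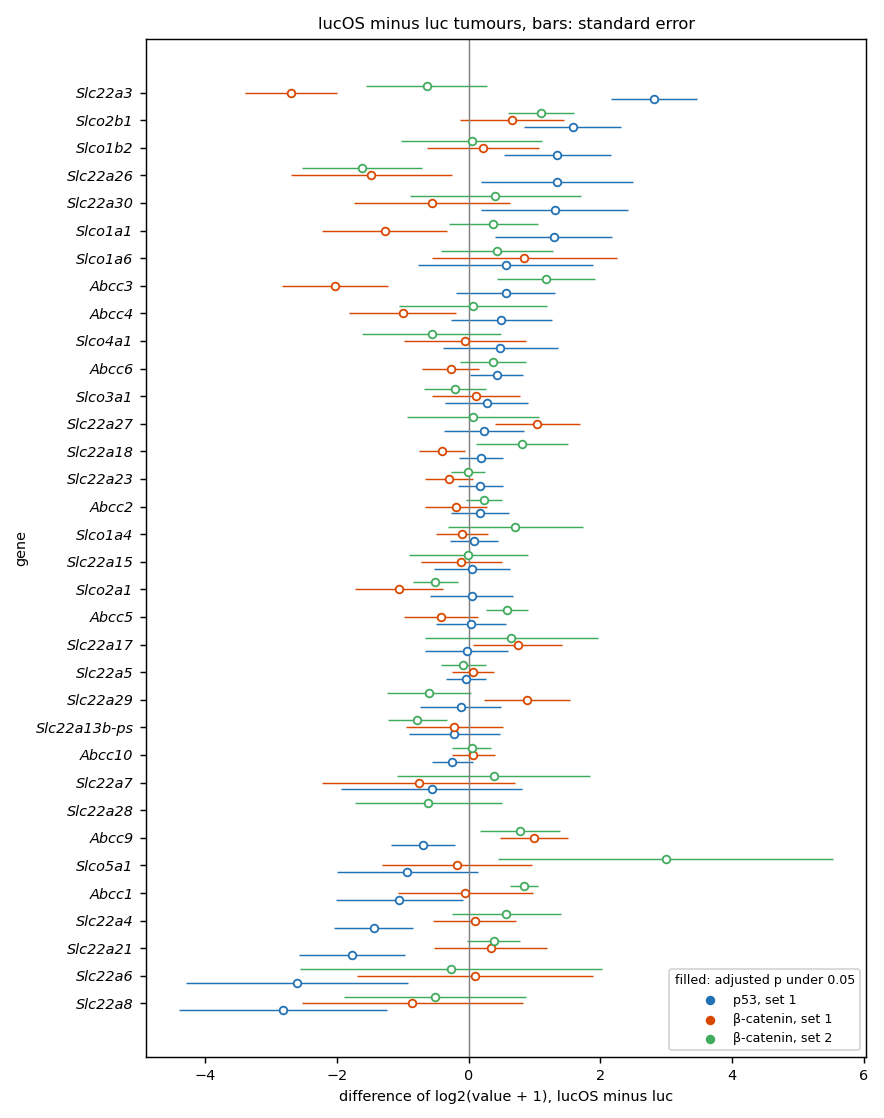
Difference of log2(value + 1) between lucOS and luc tumours (x axis) for tested members (y axis), with bars of 1 standard error. Blue is p53 in set 1, orange β-catenin in set 1 and green β-catenin in set 2. No point is filled, since none passed an adjusted p of 0.05, and Slc22a3 in set 1 lies on opposite sides of 0 for the p53 and β-catenin tumours.

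Other liver transporters were looked at beside the members, from a list of 15 of which 13 were tested. With β-catenin, 3 were called higher among luc tumours (Abcb4, Abcg2 and Slc29a1) and 2 among lucOS tumours of set 1 (Abcb4 and Abcg2). In set 2, 2 were higher (Abcb4 and Abcg2) and 1 lower (Slc47a2). The shares of all genes called higher were 5.93%, 1.62% and 6.08% in these comparisons, and 10.9% were called lower in set 2. Abcb4, which flips phosphatidylcholine into bile, averaged 14642 ± 4014 (SD, n = 4) in luc β-catenin and 4702 ± 402 (SD, n = 3) in luc p53 tumours (difference 1.60 ± 0.20 (SE, adjusted p = 0.00098)), and 14490.5 ± 6457 (SD, n = 3) against 4144 ± 1458 (SD, n = 4) among lucOS tumours of set 2 (1.78 ± 0.35 (SE, adjusted p = 0.0125)). Abcg2, a pump of sulphates and drugs, differed by 1.35, 1.23 and 1.58 (adjusted p = 0.00884, 0.0492 and 0.00554) in the 3 comparisons. The bile acid uptake carrier Slc10a1 and the bile salt pump Abcb11 were not called in any, with differences from -0.78 to 1.003 and from -0.0090 to 1.20.

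Regulators and scaffold partners of these carriers made a list of 13, all tested. Among luc tumours 3 were called higher (Ahr, Nfe2l2 and Rxra) and none lower, and none was called among lucOS tumours of set 1. In set 2 Ahr was higher and the scaffolds Pdzk1 and Slc9a3r1 were lower. Of all genes tested, 5.93% were called higher and 9.16% lower among luc tumours, and 1.62% and 2.59% among lucOS tumours of set 1. In set 2 the shares were 6.08% and 10.9%. Ahr, the receptor for dioxin-like ligands, averaged 4218 ± 3618 (SD, n = 4) in luc β-catenin and 689.9 ± 251 (SD, n = 3) in luc p53 tumours (2.36 ± 0.52 (SE, adjusted p = 0.0155)), and 1664 ± 364 (SD, n = 3) against 517 ± 279 (SD, n = 4) among lucOS tumours of set 2 (1.81 ± 0.41 (SE, adjusted p = 0.0194)). Pdzk1, which anchors carriers at the membrane, averaged 1727 ± 1446 (SD, n = 3) against 7946 ± 2765 (SD, n = 4) in that comparison (-2.55 ± 0.63 (SE, adjusted p = 0.0261)), and in set 1 it differed by -0.38 and -0.79. Hnf4a, a master factor of hepatocyte genes, was not called, with a difference of 0.73 among luc tumours.

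Genes of other marker lists were called as well. The shares of all genes called in either direction were 15.1%, 4.21% and 17% in the luc, set 1 lucOS and set 2 lucOS comparisons. No T cell, endothelial or stellate gene was called in set 1, and no red blood cell gene in either set. The pericentral list was called higher for 7 of 7, 4 of 7 and 5 of 7 genes, and the hepatocyte list for 2, 0 and 1 of 7, in the luc, set 1 lucOS and set 2 lucOS comparisons. In set 2, 4 of 5 T cell genes (Cd3e, Cd3g, Cd3d and Cd8a) and 2 of 5 endothelial genes (Pecam1 and Cdh5) were called lower with β-catenin. The bile duct gene Sox9 was called lower in both set 1 comparisons, the only 1 of 6. Of 4 macrophage genes measured, Marco was called higher among luc tumours, and Clec4f higher and Csf1r lower in set 2. The stellate gene Dcn was called higher in set 2, 1 of 5. The T cell genes summed to 265 to 688 in lucOS p53 and 104 to 109 in lucOS β-catenin tumours of set 2. The part of these cell types in the transporter values was not tested.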

How the data were processed

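TruSeq RNA libraries were made from 22 liver tumours, per the labels' protocols, with no word on strand. The submitters' processing notes list TopHat2, featureCounts, DESeq2 and build mm10 but no versions. The authors deposited 2 tables of signal per gene. In each tumour 100% of values divided by the smallest one gave a whole number (tolerance 0.01 reads), so the deposited signal is a read count divided by 1 factor per tumour, and reads were recovered from it. The tables were scaled separately, so tests stay within a table.

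In the first table, of 33068 transcripts, the one with the highest mean stood for its gene (67 transcripts for the 51 members), 53 symbols turned into dates were restored, and in the second 27 were left out. Log2(value + 1) was fitted with limma 3.58.1 (R 4.3.3, with trend), with every group of a set in the same fit and Benjamini-Hochberg adjustment over all genes that reached 10 in 2 tumours of set 1 or 3 of set 2. An adjusted p with no tool named is limma's. Means and SDs are of deposited values. The script was tested on simulated data for the luc, set 1 lucOS and set 2 lucOS driver comparisons. A true 2-fold change was called for 12%, 10% and 18% of changed genes, and a 4-fold change for 68%, 54% and 66%. A gene not called can therefore still differ. Alternatives were TMM scaling, a pseudocount of 8, no filter, only the 2 groups compared, each tumour left out, transcripts summed, tumours named JAX alone, and, chosen after seeing the data, edgeR 4.0.16 and DESeq2 1.42.0 on recovered reads.

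Members and lists were chosen with earlier results of these data known. Named with values were Slc22a3, Slc22a6, members called in any comparison, the 5 with the highest mean in each table, and those with means 4-fold apart in 1 direction in all 3 driver comparisons and a mean of at least 10 in the higher group, 19 in all. Of these, 1 is counted but not reported here by name, as is 1 gene of the listed regulators. Other members and genes named with values were chosen after their values were seen. Positions are from GENCODE vM21 (GRCm38, the assembly of mm10), and upstream sequences from RefSeq (GRCm38.p6). Of the role lists, Slc22a9 had no match.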

Additional observations from a re-analysis of the deposited data

Results flagged for a closer look

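Of 38 groups of 4 tumours, taken member by member, 6 held a tumour that stood apart from the rest by Dixon's test on the deposited values. Chance flags about 1 in 20 groups only where values are normally distributed and groups are independent. The values were not on the log2 scale of the fits and the same tumours recur across members, so the 6 cannot be set against that rate. All 6 were in the luc β-catenin tumours of set 1. Tumour 1 was highest for Abcc3 (25239 against 4867 to 7051), Slc22a6 (276 against 3.58 to 12.8), Slc22a8 (21.5 against 0 to 0.924) and Slco1a1 (2495 against 282 to 299). Tumour 3 was highest for Slc22a5 (1926 against 1110.3 to 1233) and Slco1b2 (50721 against 21097 to 25053). Tumour 1 thus combined high levels of the hepatic genes Abcc3 and Slco1a1 with reads of the kidney-type genes Slc22a6 and Slc22a8.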

How the results depend on the processing

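No paired analysis was possible because the labels carry no replicate numbers and the numbers used here follow accession order only. Among members called in luc tumours of set 1, 13 of 14 kept their call with TMM, 14 of 14 with a pseudocount of 8, 13 of 14 with edgeR, with no filter and with transcripts summed, and 12 of 14 with only the 2 groups compared. DESeq2 kept 12 and gave no adjusted p for Slc22a30 and Slco1a1. For lucOS tumours of set 1 the calls kept were 4 of 4 with TMM, a pseudocount of 8 and DESeq2, 3 with edgeR, no filter and transcripts summed, and 1 with only the 2 groups compared. For set 2 they were 11 of 11 with a pseudocount of 8 and DESeq2, 10 with TMM, 9 with edgeR, no filter and only the 2 groups compared, and 0 in tumours named JAX alone. In the luc comparison of set 1 the members called lower, 2 as deposited, were 1 with TMM scaling and 4 with only the 2 groups compared, and leaving out 1 tumour gave 6 to 10 higher and 1 to 4 lower. In the lucOS comparison of set 1 (3 higher and 1 lower) DESeq2 gave 9 and 2, edgeR 0 lower, only the 2 groups compared 1 higher and 0 lower, and leaving out 1 tumour 1 to 2 higher and 0 to 1 lower. In set 2 (8 higher and 3 lower) edgeR gave 1 lower, tumours named JAX alone 0 and 0, and leaving out 1 tumour 1 to 7 higher and 2 to 3 lower. DESeq2 called 1 member in the antigen comparison of set 1 β-catenin tumours (18 of 16108 genes) and 1 in the interaction (17 of 16108). Of all genes in the luc comparison, only the 2 groups compared gave 1007 higher and 1551 lower. Leaving out 1 tumour there gave 471 to 831 higher and 341 to 1133 lower. For lucOS in set 1, DESeq2 called 1057 higher and 996 lower of all genes, and edgeR 293 and 125. Only the 2 groups compared gave 11 and 7. In set 2, edgeR called 1336 higher and 894 lower of all genes. Leaving out 1 tumour there gave 447 to 871 higher and 653 to 1376 lower. Signs turned, with 1 tumour left out, only where a named member had not been called. Among lucOS tumours of set 1 the difference then ran from -0.88 (β-catenin tumour 2 out; p53 tumour 1 out -0.39, p53 tumour 2 out -0.015) to 1.04 for Abcc3. Leaving out p53 tumour 3 gave the lowest values of Abcc6 (-0.26, up to 0.33 with another tumour out), Slc22a29 (-0.21, up to 0.725) and Slco1a1 (-0.25, up to 1.005), and Slco1a1 was -0.11 with β-catenin tumour 1 out. The cause was not tested. Genes near 0, such as Slc22a8 with β-catenin and Slc22a3 with p53, rest on few reads.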

Other observations

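The following members were picked after their values were seen. Slco5a1, an OATP of unknown substrate, was at 818, 1.94 and 4.26 in the luc β-catenin and 1797, 11.6 and 284 in the lucOS β-catenin tumours of set 2, while the lucOS p53 tumours had 81.2, 40.5, 88.5 and 0. The 3 tumours luc β-catenin 1 and lucOS β-catenin 1 and 3 were thus above all others of set 2, and in set 1 the highest value was 54.5 in luc p53 tumour 2. Abcc4 (MRP4), which exports bile acids and cyclic nucleotides into blood, was at 470.1, 384 and 8571 in the lucOS β-catenin and 3409, 549.8 and 717 in the luc β-catenin tumours of set 2, against 918, 614, 522 and 260.2 with p53. Luc β-catenin tumour 1 of set 2 differed from the other 2 of its group in several members at once: it was higher in Abcc4, Slco5a1, Slc22a3 (105.5 against 26.2 and 5.11) and Slc22a6 (1091 against 35.9 and 5.97), and lower in Slco1a4 (388 against 3634 and 2695), Abcc6 (864 against 4875 and 2930) and Slc22a18 (278 against 1080.2 and 915). The same tumour stood apart in marker sums, with 234085 for the hepatocyte list against 810049 and 912979, and 13444 for the stellate list against 6696 and 3436. The part of these cell types was not tested. Abcc1 (MRP1), which exports glutathione conjugates, was at 2377, 197 and 2248 in the lucOS p53 tumours of set 1, so that tumour 2 lay in the range of the β-catenin tumours of its set, 137, 771, 375 and 908 with luc and 214 and 829.7 with lucOS. The same tumour was the low one in Slc22a8 and the kidney tubule sum, while Slc22a6 was low in tumours 2 and 3.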
